A study of Mus musculus with 10 samples.

Results

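The slow fiber contractile genes encode the forms of the contractile proteins that mark slow, oxidative muscle fibers. The 9 genes were chosen by name among the 37947 gene symbols of the deposited table: Myh7, Myl2, Myl3, Tnnt1, Tnni1, Tnnc1, Tpm3, Myoz2 and Myh7b. The table has 1 row for each transcript, and each gene was taken at its row with the highest mean over the 10 libraries. The 9 genes had 68 rows, of which 65 were above 0 in at least 1 library. For 8 of them the chosen row entered the comparison of the ages, which covered 10161 genes, and the ninth, Myh7b, was listed at 0 in every library.

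Poly-A RNA was sequenced from the gastrocnemius muscle of 5 young (6 months) and 5 aged (24 months) male C57BL/6 mice, with 1 library for each mouse, numbered 1 to 5 within each age. The labels name no engineered allele or treatment for either age, and the methods state that the soleus was dissected as a separate muscle. The question was which genes differ between young and aged muscle. Values are log2 of FPKM, the reads of a transcript scaled to its length and to the depth of its library, and a value of 0 stands for any FPKM of 1 or less. Genome positions are those of GRCm38 (mm10), taken from RefSeq by gene symbol.

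In a sarcomere, myosin heavy chains form the motor that pulls on the thin filament, and essential and regulatory light chains stabilize and tune it. On the thin filament, troponin C binds calcium, troponin I holds the filament off, and troponin T ties both to tropomyosin. Most of these proteins have slow and fast forms encoded by separate genes, slow fibers use the slow set together, and the mouse gastrocnemius is mainly a fast muscle. Several of the slow forms are shared with the heart.

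Depths recovered from the steps between values ranged from 19886361 to 34554354 reads, and 19.9 to 34.6 reads on 1 kb of transcript made up an FPKM of 1. Both libraries with the number 3 had the most reads of their age and the fewest rows above 0 (35024 in young, 29878 in aged), compared with 38855 to 43296 in the other 8. Values are therefore also given without both of them where they bear on a result. In all libraries the tissue carried the mark of a fast muscle: Myh4, the fastest heavy chain, held between 90.8% and 96.5% of the FPKM summed over the 4 adult myosin heavy chains.

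Since the members varied together, the 250 bases before the start of transcription are shown for 4 of them: Myh7 and Tnnc1, the heavy chain and the member that varied most, and Myl3 and Myoz2, the pair with the smallest unadjusted p. They come from the RefSeq promoter table of build GRCm38.p6, which held all 9 members, and run 5′ to 3′ on the strand of the gene. They lie at chr14:54994627-54994876 (minus strand) for Myh7, chr14:31208062-31208311 (plus strand) for Tnnc1, chr9:110763428-110763677 (plus strand) for Myl3 and chr3:123034988-123035237 (minus strand) for Myoz2. Capitals mark matches on either strand to 3 motifs of muscle promoters: the MCAT motif (CATTCC), bound by TEAD factors, the E-box (CANNTG), bound by MyoD and its relatives, and the MEF2 motif. The last was searched as YTAWWWWTAR, where Y is C or T, W is A or T and R is A or G.
Myh7: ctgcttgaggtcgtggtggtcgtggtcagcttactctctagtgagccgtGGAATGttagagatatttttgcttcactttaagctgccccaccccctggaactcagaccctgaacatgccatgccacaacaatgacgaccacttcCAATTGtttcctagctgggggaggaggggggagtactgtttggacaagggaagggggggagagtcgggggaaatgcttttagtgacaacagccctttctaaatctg
Tnnc1: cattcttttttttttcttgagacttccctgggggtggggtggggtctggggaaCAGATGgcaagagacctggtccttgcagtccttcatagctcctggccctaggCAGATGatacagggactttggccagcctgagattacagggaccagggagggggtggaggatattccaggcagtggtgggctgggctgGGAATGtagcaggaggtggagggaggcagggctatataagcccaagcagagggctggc
Myl3: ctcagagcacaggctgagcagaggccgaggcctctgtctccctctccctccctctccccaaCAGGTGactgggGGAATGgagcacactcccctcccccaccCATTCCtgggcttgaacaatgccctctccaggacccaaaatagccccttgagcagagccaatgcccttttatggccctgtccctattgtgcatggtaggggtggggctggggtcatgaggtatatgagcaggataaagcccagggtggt
Myoz2: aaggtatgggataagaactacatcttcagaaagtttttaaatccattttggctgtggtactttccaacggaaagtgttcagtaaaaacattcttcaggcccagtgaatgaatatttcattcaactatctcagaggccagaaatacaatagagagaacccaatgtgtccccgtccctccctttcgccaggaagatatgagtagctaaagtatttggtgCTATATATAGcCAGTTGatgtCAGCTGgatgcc
In these windows an E-box was present in 9 of 9 members, against 66.2% of the 32851 promoters in the table. The MCAT motif was present in 3 of 9 members (Myh7, Tnnc1 and Myl3, where it occurred at 2 places) against 12.6% of all promoters, and the MEF2 motif in 1 of 9 (Myoz2) against 2.92%. The match in Myoz2 lies at −33 to −24 from the start and contains the letters TATATA. Among the 9 of 14 fast contractile genes in the same table, 7 had an E-box, 5 the MCAT motif and 2 the MEF2 motif. The NFAT core (GGAAA) was in 5 of 9 members, in 5 of the 9 fast genes and in 55.6% of all promoters. The nuclear receptor half-site AAGGTCA was in 2 of 9 members, in 0 of the 9 fast genes and in 4.08% of all promoters. Matches of the 3 motifs in capitals did not overlap in the members. These are matches of letters and not measured binding sites.

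All 8 detected members were higher in the mean of the aged libraries, by 0.95 to 1.61 on the log2 scale, and none passed the test. The SD between mice of 1 age was 0.72 to 2.69 and exceeded the difference in 6 of 8 members, Myl3 and Myoz2 being the exceptions. limma with Benjamini-Hochberg adjustment over all rows tested called 0 of the 8 (adjusted p = 1.0 for each), where 0.00984% of all genes tested were called and higher in aged muscle. At an unadjusted limma p under 0.05, 2 of 8 members were higher in aged muscle (Myl3 and Myoz2), against 6.05% of all genes. In no member did every aged library lie above every young one, which was the case for 2.08% of all genes. The mean difference was more than 2-fold in 6 of 8 members, against 1.68% of all genes, and its median over the members was 1.48, compared with 0.07 over all genes. Both values rested on single libraries: 2 of 8 were past 2-fold without aged library 1 (median 0.85), 3 without young library 4 (median 0.80) and 4 without young library 1 (median 0.99), while 8 of 8 were without aged library 5 (median 2.12). By the exact permutation of the libraries, 0 of 8 members had a p under 0.05, with a range of 0.0714 to 0.413.

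Myh7, the slow and beta-cardiac myosin heavy chain (row Myh7-001, gene at chr14:54970684-54994626), had log2 FPKM of 0, 2.04, 3.27, 0 and 3.13 in young libraries 1 to 5 and of 5.54, 4.82, 2.45, 1.84 and 0 in aged libraries 1 to 5. Both ages thus held libraries in which the gene was not detected above an FPKM of 1, and only aged libraries 1 and 2 exceeded every young one. The young mean was 1.69 ± 1.61 and the aged mean 2.93 ± 2.26 (SD, n = 5 each), and they differed by 1.24 ± 1.10 (SE, limma, adjusted p = 1.0). In reads, the listed values of Myh7 stood for 585 reads in aged library 4 up to 6063 in aged library 1. The noncoding RNA Mhrt overlaps Myh7 on the opposite strand, and with no strand setting stated, reads of both in the shared bases cannot be told apart.

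Among the light chains, Myl2, the slow regulatory light chain (row Myl2-003, gene at chr5:122092724-122113473), was detected in all libraries. Its log2 FPKM was 3.50, 4.75, 6.51, 3.62 and 6.20 in young and 8.28, 7.50, 7.06, 5.86 and 3.60 in aged libraries 1 to 5. The 3 highest values were aged, yet aged library 5 lay below 4 of the 5 young libraries. The means were 4.91 ± 1.41 and 6.46 ± 1.82 (SD, n = 5 each), and they differed by 1.55 ± 0.91 (SE, limma, adjusted p = 1.0).

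Myl3, the slow essential light chain (row Myl3-003, gene at chr9:110763678-110769802), had log2 FPKM of 2.87, 4.79, 6.68, 3.96 and 5.40 in young and of 7.56, 6.69, 6.97, 5.51 and 4.97 in aged libraries 1 to 5. All 5 aged values lay above those of young libraries 1, 2 and 4, and those of young libraries 3 and 5 fell among them. With means of 4.74 ± 1.44 and 6.34 ± 1.07 (SD, n = 5 each), the difference of 1.60 ± 0.71 (SE) had an unadjusted p of 0.0482 and an adjusted p of 1.0 by limma. The exact permutation test gave p = 0.0714.

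The 3 slow troponins differed most between mice. Tnnt1, the slow troponin T (row Tnnt1-005, gene at chr7:4504569-4515975), had log2 FPKM of 1.30, 3.68, 5.33, 0 and 4.95 in young and of 7.18, 5.99, 5.26, 2.84 and 1.67 in aged libraries 1 to 5. Tnni1, the slow troponin I (row Tnni1-004, gene at chr1:135783033-135810989), had 0, 2.17, 4.19, 0 and 3.73 in young and 6.29, 5.21, 4.27, 1.52 and 0.83 in aged libraries. Tnnc1, the troponin C of slow and cardiac muscle (row Tnnc1-003, gene at chr14:31208312-31211729), had 0, 3.29, 5.48, 0 and 4.58 in young and 6.90, 5.82, 5.33, 2.44 and 0.02 in aged libraries. For all 3, aged libraries 4 and 5 lay below young libraries 2, 3 and 5, and aged library 1 was the highest of all. The value of Tnnc1 in aged library 5 rested on 12 reads, the fewest behind any listed value of the members, while Tnnc1 in aged library 1 rested on 1486. The differences between the ages were 1.54 ± 1.28 for Tnnt1, 1.61 ± 1.22 for Tnni1 and 1.43 ± 1.50 for Tnnc1 (SE, limma, adjusted p = 1.0 for each). Values listed at 0 enter these means as an FPKM of 1, so that the differences of the 4 members with such values (Myh7 and the troponins) depend on that limit. With listed zeros taken as an FPKM of 0 and 0.1 added to every FPKM, they were 1.91 for Myh7, 2.20 for Tnnt1, 2.95 for Tnni1 and 2.79 for Tnnc1.

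Tpm3, a tropomyosin gene whose muscle product is the slow alpha-tropomyosin and which also has products in other cells (row Tpm3-007, gene at chr3:90072651-90100902), had log2 FPKM of 2.92, 4.11, 5.17, 3.45 and 5.18 in young and of 7.01, 6.06, 4.43, 4.49 and 3.58 in aged libraries 1 to 5. Aged libraries 1 and 2 exceeded every young library, and the other aged libraries lay within the young range. The means were 4.17 ± 1.01 and 5.11 ± 1.39 (SD, n = 5 each), a difference of 0.95 ± 0.69 (SE, limma, adjusted p = 1.0). The table splits Tpm3 into 17 rows, all of them higher in the aged mean.

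Myoz2, also called calsarcin-1, anchors calcineurin at the Z-disc of slow and cardiac muscle (row Myoz2-003, gene at chr3:123006206-123035003). Its log2 FPKM was 3.31, 3.26, 4.36, 2.45 and 4.79 in young and 5.18, 4.74, 4.32, 4.44 and 4.27 in aged libraries 1 to 5. The aged values lay close together, above 3 of the young values and on both sides of those of young libraries 3 and 5. The means were 3.63 ± 0.94 and 4.59 ± 0.38 (SD, n = 5 each), and the difference of 0.96 ± 0.41 (SE) had an unadjusted p of 0.0426 and an adjusted p of 1.0 by limma. The exact permutation test gave p = 0.0952.

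Myh7b, a slow-type heavy chain related to Myh7 (row Myh7b-001, gene at chr2:155611243-155634307), was listed at 0 in all 10 libraries in each of its 3 rows. The table lists any FPKM of 1 or less as 0, so that reads below that limit are not seen, and no comparison was made for it.

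**Figure D1:**
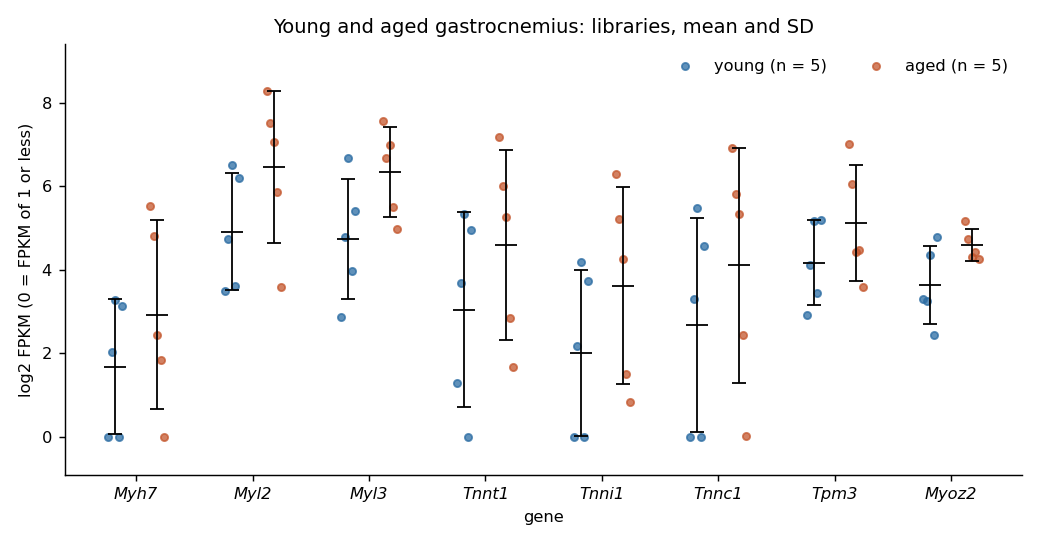
log2 FPKM of the 8 detected members in 5 young (blue) and 5 aged (orange) libraries, 1 point for each library, with the mean and SD as black bars. The groups overlap in every gene, the aged mean is the higher one in each, and Myoz2 has the narrowest aged range (4.27 to 5.18).

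Treating same-numbered young and aged libraries as pairs leaves the differences as they are in this balanced design and changes only their errors. With that block the unadjusted call of Myl3 and Myoz2 was lost (limma, unadjusted p = 0.0548 and 0.0569, adjusted p = 0.62 to 0.795 over the 8 members), so that 0 of 8 were called, against 9.5% of all genes called and higher in aged muscle. Without both libraries numbered 3, the difference was larger in 8 of 8 members, between 1.21 and 1.99, with 2 of 8 higher in aged muscle at an unadjusted p under 0.05, against 13.3% of the 10072 genes then tested, and a smallest adjusted p of 0.308 by limma. The count of 2 was 0 without young library 1, 2 or 4 or without aged library 1 or 2, 1 without aged library 3 or 4, and 3 without aged library 5. The choice of row did not decide the direction: 65 of 65 rows of the 8 genes were higher in the aged mean, by 0.74 to 1.94. Rows of 1 gene share reads and are not independent measurements.

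The 8 members were ordered alike from mouse to mouse. Aged library 1 held the highest value of 8 of 8 members, and aged library 2 was among the first 2 for 6 of them. Young libraries 1 and 4 ranked between 8 and 10 for every member, with 3 and 4 members listed at 0. Young libraries 3 and 5 ranked 2 to 6 and so lay above aged libraries 4 and 5 for most members, while aged library 5 ranked 7 to 9.

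**Figure D2:**
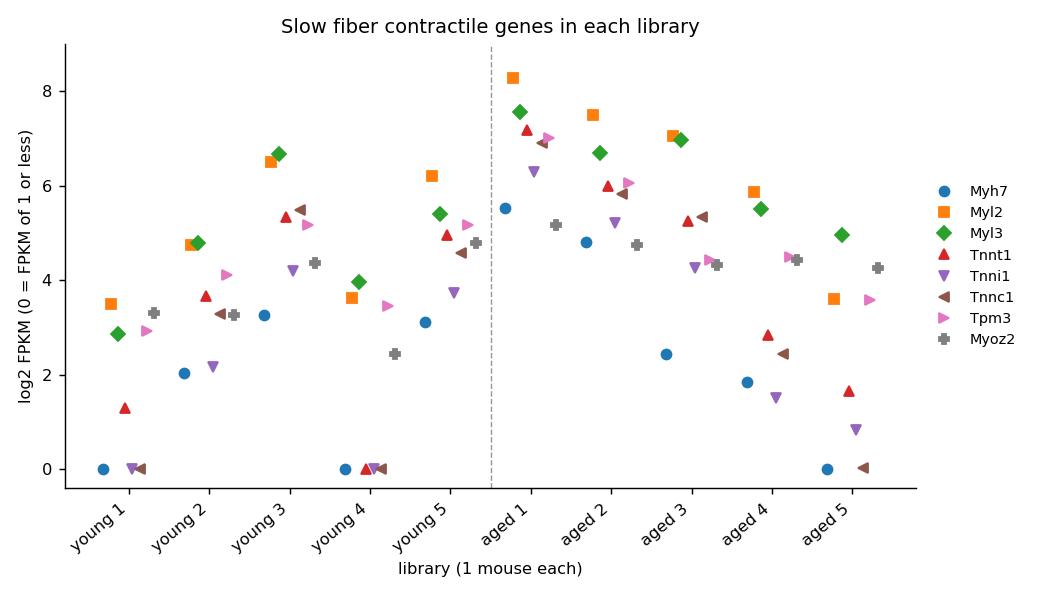
log2 FPKM of the 8 detected members in each library, 1 symbol for each gene, young libraries to the left of the dashed line and aged ones to the right. The genes shift up and down together between libraries, highest in aged library 1 and lowest in young libraries 1 and 4, where 3 and 4 of them are at 0.

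Summed over the members, the FPKM was 38.6, 113, 363, 44.2 and 257 in young and 1050, 563, 404, 167 and 80.6 in aged libraries 1 to 5. The ranges of the ages overlapped, and the highest sums were those of aged libraries 1 to 3. Each member centered on its own mean, the mean over the members was −2.30, −0.53, 1.08, −2.36 and 0.70 in young and 2.70, 1.82, 0.97, −0.42 and −1.67 in aged libraries 1 to 5, on the log2 scale. Across the 10 libraries, Pearson's r of a member with the mean of the others was between 0.80 (Myoz2) and 0.99 (Tnni1), and the 28 pairs of members had r of 0.73 to 0.98. Centered on the mean of their age, members still correlated with the mean of the others at 0.76 to 0.99. Without the pair of libraries farthest from the median, r remained between 0.70 (Myoz2) and 0.98 (Tnni1). These values describe 10 libraries in which all members share the library, its depth and its dissection.

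Within 1 age, the members were among the most variable genes of the table. The within-age SD of log2 FPKM, from the limma fit, was 2.69 for Tnnc1, 2.30 for Tnnt1, 2.18 for Tnni1, 1.96 for Myh7, 1.63 for Myl2, 1.27 for Myl3, 1.22 for Tpm3 and 0.72 for Myoz2. The median was 1.79 over the members, compared with 0.39 over all 10161 genes and 0.28 over the 14 fast contractile genes. By this measure Tnnc1 ranked 24, Tnnt1 44, Tnni1 48 and Myh7 57 of 10161. For 7 of 8 members fewer than 3% of all genes had a larger SD, and Myoz2 was the exception with 14.7%.

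**Figure D3:**
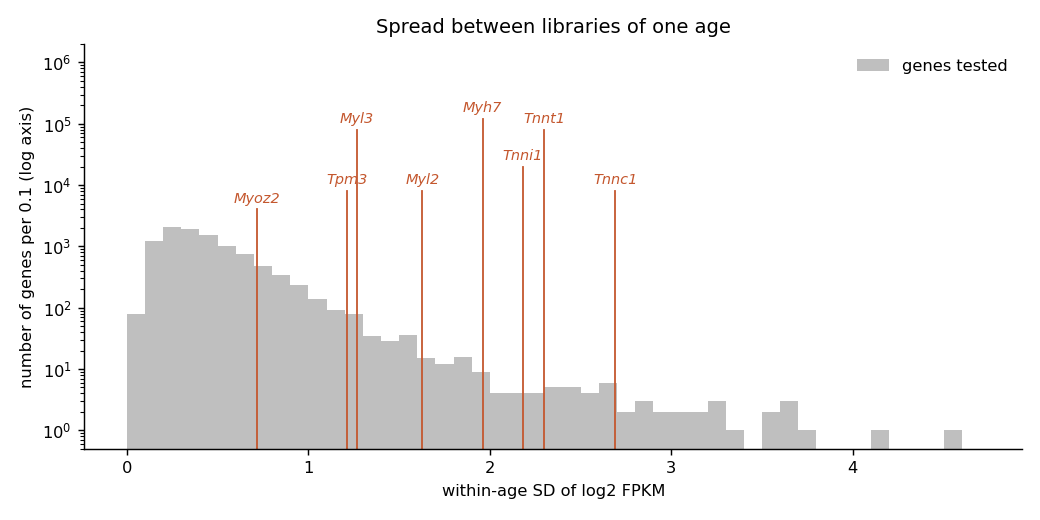
Histogram of the within-age SD of log2 FPKM over the 10161 genes tested (grey, counts on a log axis), with the 8 detected members as orange lines (their heights only separate the names). Tnnc1, Tnnt1, Tnni1 and Myh7 lie far in the right tail at 1.96 to 2.69, and Myoz2 lies at 0.72, nearer to the median of 0.39.

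FPKM is per length, and the levels of different members are set side by side here at the chosen row of each gene. Rows of 1 gene share reads, and the recovered lengths of the chosen rows ran from 358 bases (Tnnt1) to 6139 (Myh7). Whether the order holds for other rows was not tested. In young muscle the order by mean log2 FPKM was Myl2, Myl3, Tpm3, Myoz2, Tnnt1, Tnnc1, Tnni1 and Myh7, and each pair of neighbors differed by less than the smaller of their SDs. In aged muscle the order was the same. There the gaps from Myl3 to Tpm3 (1.23) and from Tpm3 to Myoz2 (0.52) exceeded the smaller SD of the pair, and the others did not. At the chosen rows, both light chains were listed above the heavy chain in every library.

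Each slow gene was then set against the fast gene that encodes the same part of the sarcomere, within the same library, which removes the scaling of the library. The fast partners were far higher and far steadier. For the 4 slow genes detected in all libraries, the FPKM of the fast partner was larger by 26.6-fold (Myl1 over Myl3 in aged library 3) up to 3310-fold (Tpm1 over Tpm3). These folds are those of the chosen rows. Over the 10 libraries the fast partners spanned between 0.57 (Tpm1) and 2.04 (Myl1) on the log2 scale, and the slow genes between 2.73 (Myoz2) and 7.18 (Tnnt1). Of the 14 fast contractile genes, 0 passed limma's adjusted p or an unadjusted p under 0.05, and their median difference between the ages was −0.06. The aged mean was the lower one in 12 of the 14, against 3920 of all 10161 genes. Myh4 was lower by 0.27 in the aged mean, with an exact permutation p of 0.0238, and without both libraries numbered 3 its unadjusted limma p was 0.0276 and that of Myoz1 0.0252. With the block the unadjusted limma p of Tpm2 was 0.0345.

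Of the 8 pairs, 1 had an exact permutation p under 0.05 for the log2 difference of slow minus fast. Myoz2 minus Myoz1 was −7.29, −7.42, −6.54, −8.20 and −5.74 in young and −5.21, −5.67, −6.47, −5.60 and −6.06 in aged libraries 1 to 5. Young library 5 lay within the aged range, and the other young libraries lay below it. The aged mean was higher by 1.24 ± 0.47 (SE, exact permutation p = 0.0317). With same-numbered libraries as pairs the exact p was 0.188, where 5 pairs cannot give less than 0.0625. It was between 0.0556 and 0.0635 without young library 1, 2 or 4 or aged library 1, 2 or 4, and 0.0571 without both libraries numbered 3.

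Myl3 minus Myl1 was −10.77, −8.83, −6.61, −9.79 and −8.13 in young and −6.07, −6.84, −4.73, −8.00 and −8.00 in aged libraries 1 to 5. Every same-numbered pair was higher in aged muscle, and across the ages young library 3 lay within the aged range. The aged mean was higher by 2.10 ± 0.94 (SE, exact permutation p = 0.0635), and the paired exact p was 0.0625, the smallest that 5 pairs can give. Without young library 3 the exact p was 0.0238, and without both libraries numbered 3 it was 0.0286. It was between 0.0556 and 0.135 when any other single library was left out. Aged library 3 had the lowest Myl1 of all libraries, 11.71 against 12.96 to 13.75 in the others, so its value of −4.73 is set by the fast partner as well. For Myl2 minus Mylpf the exact p was 0.159. It was 0.0476 without aged library 5 and between 0.103 and 0.278 when any other single library was left out. The remaining 5 pairs had differences of 0.99 to 1.79 and exact permutation p between 0.214 and 0.373.

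**Figure D4:**
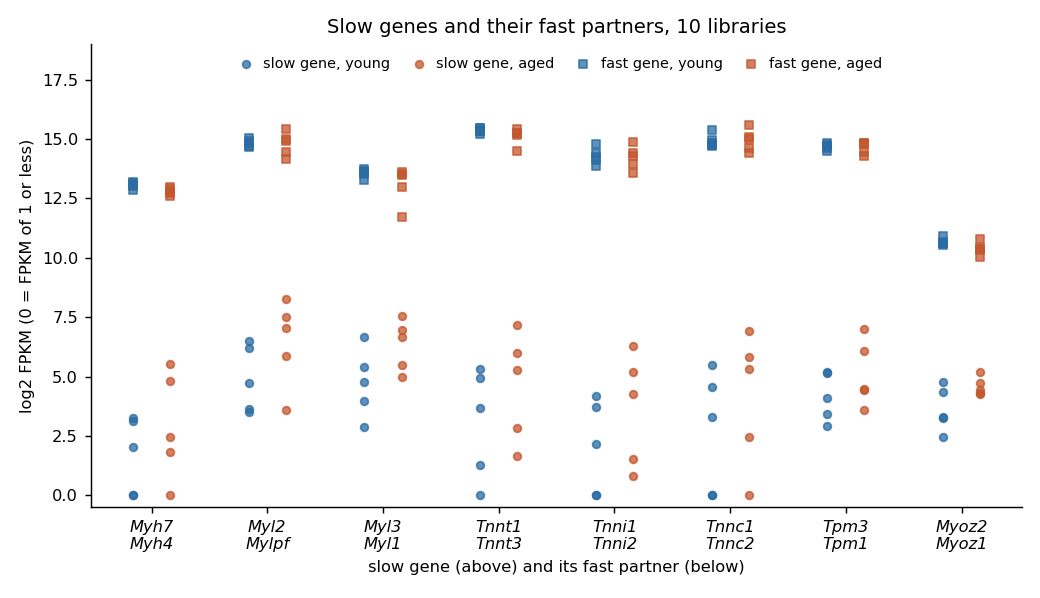
log2 FPKM of each slow gene (circles) and its fast partner (squares) in 5 young (blue) and 5 aged (orange) libraries. The fast partners lie in narrow bands above 10 for both ages, while the slow genes spread between 0 and 8.28.

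The share of Myh7 among the adult myosin heavy chains gives the same comparison on a linear scale. Myh7 held 0%, 0.0419%, 0.122%, 0% and 0.0956% of the summed FPKM of Myh7, Myh2, Myh1 and Myh4 in young libraries 1 to 5, and 0.647%, 0.344%, 0.0727%, 0.0426% and 0% in aged libraries 1 to 5. In the 3 libraries listed at 0, an FPKM of 1 or less allows a share of up to 0.0105% to 0.0146%. The mean was 0.0519% ± 0.0556 in young and 0.221% ± 0.274 in aged muscle (SD, n = 5 each), which did not differ beyond the spread between libraries (exact permutation p = 0.294, paired 0.438). Without aged library 1 the difference of 0.169 percentage points became 0.063. The share of Myh2, the heavy chain of the fast oxidative fibers, was 1.18% ± 0.611 in young and 1.57% ± 0.36 in aged muscle (exact permutation p = 0.262).

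**Figure D5:**
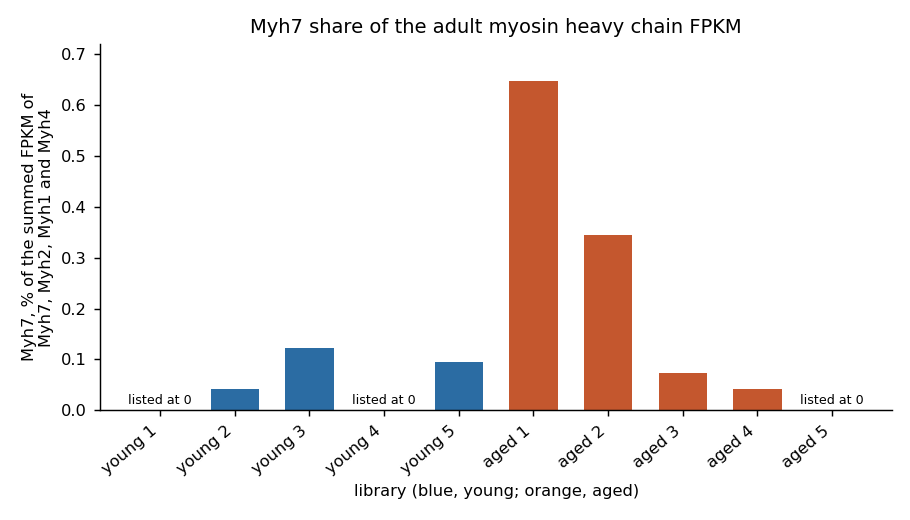
Percent of Myh7 in the summed FPKM of Myh7, Myh2, Myh1 and Myh4 in each young (blue) and aged (orange) library, with bars from 0. The share stays below 0.65% everywhere, is highest in aged libraries 1 and 2, and is listed at 0 in young libraries 1 and 4 and in aged library 5.

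Other genes listed for slow fibers had a median within-age SD of 0.77. The list also holds Myoz3, or calsarcin-3, which is known from fast fibers and differed by −0.68 in the mean, by −0.16 without both libraries numbered 3 and by 0.12 without aged library 3. Of 14 listed, 13 were tested, 10 had a higher aged mean against 6241 of all 10161 genes, 0 passed limma's adjusted p, and the median difference was 0.76. At an unadjusted limma p under 0.05, 3 were higher in aged muscle, against 6.05% of all genes: Hspb7, a small heat shock protein (difference 1.37 ± 0.43, adjusted p = 0.983), Myom3, an M-band protein (1.28 ± 0.44, adjusted p = 1.0), and Fabp3, which carries fatty acids (0.76 ± 0.28, adjusted p = 1.0; all differences ± SE). With same-numbered libraries as pairs, 6 of the 13 had an unadjusted p under 0.05 and a higher aged mean, against 9.5% of all genes. The count of 3 with an unadjusted p under 0.05 was 5 without young library 3, young library 5 or aged library 3, 6 without both libraries numbered 3, 2 without young library 2 and 1 with the row of second highest mean. The oxygen store myoglobin, Mb, the most abundant of the list, had means of 9.77 ± 0.74 in young and 10.39 ± 0.41 in aged muscle (SD, n = 5 each), and Mybpc1, slow myosin binding protein C, 7.10 ± 0.92 and 7.27 ± 0.58. Smtnl2, a smoothelin-like protein, had 7.60 ± 0.20 and 7.04 ± 0.95, and its difference of −0.56 was −0.10 without both libraries numbered 3. Aged library 5, low in the contractile members, was the highest of all for Hspb7, at 7.15, and had 8.85 for Fabp3, second to aged library 3.

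Of 14 tested genes of the sarcomere that fibers of both kinds share, 0 passed limma's adjusted p. Their median difference was 0.08, with a range of −0.47 (Neb, 0.08 without both libraries numbered 3) to 0.81. The aged mean was higher in 9 and lower in 5, with 6241 of all 10161 genes higher. At an unadjusted p under 0.05, 1 was higher in aged muscle, against 6.05% of all genes: Actn2, the Z-disc alpha-actinin found in all fibers (0.81 ± 0.28, SE, limma adjusted p = 1.0). Acta1, skeletal alpha-actin, the most abundant of them, had means of 13.81 ± 0.33 and 13.71 ± 0.27 (SD, n = 5 each), Tcap, Des and Neb being next in level. Of 8 sarcomere genes of developing muscle or heart, 5 were tested. Of these, Myh3 was listed at 0 in 2 young libraries and at an FPKM of at most 1.36 in the others, and reached the mean FPKM needed for the test only through its aged libraries, so that no call is read from it. Of the other 4, 2 had an unadjusted p under 0.05 and a higher aged mean, against 6.05% of all genes: Myl4 (1.10, exact permutation p = 0.0635) and Tnnt2, cardiac troponin T (1.45 ± 0.29, SE, limma adjusted p = 0.369). The ages did not overlap in Tnnt2, as in 2.08% of all genes with the aged libraries above. Myh8 and Actc1 differed by −0.48 and −0.35 without passing either threshold, by −0.21 and −0.90 without both libraries numbered 3, and Myh8 by 0.07 without aged library 3. The heart genes Tnni3 and Mybpc3 were listed at 0 in every library, although Myh7, Myl2, Myl3 and Tnnc1 are used in the heart as well. Myh6, the alpha-cardiac heavy chain encoded next to Myh7, was above 0 in young library 3 (0.09) and in aged libraries 1 (1.81) and 2 (0.95) and at 0 in the other 7.

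Among 30 regulators that are known to set fiber type, 26 were tested and 0 passed limma's adjusted p or an unadjusted p under 0.05, with a median difference of 0.04. The count at an unadjusted p under 0.05 was 1 with either other scaling (median of ratios or quantile normalization) and without young library 1 or aged library 1, 2 or 3. The 4 with the highest levels were Ppp3cb and Ppp3ca, catalytic subunits of calcineurin, and the transcription factors Tbx15 and Mef2c, whose means differed by −0.11, 0.17, −0.09 and 0.13; the sign of Ppp3cb and Mef2c changed when single libraries were left out. Of 8 genes that respond to denervation, 4 were tested and 2 were higher in aged muscle at an unadjusted p under 0.05, against 6.05% of all genes: Chrna1, a subunit of the acetylcholine receptor, in which every aged library lay above every young one, against 2.08% of all genes (1.33 ± 0.21, SE, limma adjusted p = 0.222), and Gadd45a (0.81 ± 0.33, SE, adjusted p = 1.0). Musk and Myog passed neither threshold. Chrna1 did not follow the order of the slow members: aged libraries 3 and 4 had the highest values, 2.42 and 2.43.

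In bulk tissue, fewer cells of a type and less RNA in each cell cannot be told apart, and markers of other cells were therefore read beside the shared order of the members. The summed FPKM of 5 adipocyte markers was 15.1 to 114 in young and 24.2 to 84.9 in aged libraries, and its log2 value correlated with the mean profile of the members at r = 0.70 over the 10 libraries. That of 5 Schwann cell markers was 20.4 to 137 and 34.8 to 233, with r = 0.58, the lowest value in young library 1 and the highest in aged library 1. Satellite cell markers, 2 of 5 of which were detected (Pax7, Myf5 and Calcr were at 0), had r = 0.58 with sums of 8.89 to 21.5 and 11.7 to 25.9. For tendon cells (46.3 to 110 and 25.1 to 138) r was 0.31, for macrophages (1.76 to 7.19 and 4.09 to 18.5) 0.11, for fibroblasts (166 to 263 and 119 to 270) −0.26 and for endothelial cells (31.1 to 39.7 and 27.4 to 51.7) −0.42. In these 5-gene lists other than that of satellite cells, all markers were above 0 in at least 1 library. The markers with an unadjusted limma p under 0.05 included Scx, with a higher aged mean, and Col3a1, with a lower one (adjusted p = 1.0 for both). The macrophage marker Cd68 was listed at 0 in 4 of 5 young libraries and entered the test only through its aged libraries, so that no call is read from it. The other 4 tendon markers had lower aged means than young ones. The part of such cells in the order of the members was not tested.

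Of the 8212 genes above 0 in all libraries, those most like the mean profile of the members were Hnrnph3 (r = 0.87), Cdkn1c (0.85), Wfs1 (0.84), Pole3 (0.83), Atp2a2 (0.815) and Apeh (0.81). Of these, Atp2a2, the calcium pump of slow and cardiac sarcoplasmic reticulum, was the one with a span like that of the members, 3.09 on the log2 scale, and the other 5 spanned 0.35 to 0.77. The least like were Hbs1l (−0.84), Letm2 (−0.78) and C2cd2 (−0.74), which spanned 0.20 to 0.88. Atp2a2 had log2 FPKM of 2.68, 3.60, 3.71, 3.05 and 4.39 in young and of 5.77, 5.18, 3.26, 4.28 and 3.53 in aged libraries 1 to 5, highest in aged libraries 1 and 2 and lowest in young libraries 1 and 4. By list, the median r was 0.59 for 3 adipocyte, 0.57 for 3 Schwann cell and 0.51 for 2 satellite cell markers, 0.50 for the 13 other slow fiber genes, 0.38 for 3 tendon cell markers, −0.01 for the fast contractile genes, −0.23 for the regulators and 0.02 for all 8212 genes.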

How the data were processed

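The authors prepared TruSeq version 2 libraries from poly-A RNA, mapped the paired-end reads to mm10 with TopHat2 and Bowtie2 and deposited log2 FPKM for 92251 transcripts in 10 libraries, an FPKM of 1 or less being listed as 0. The counting program and strand setting are not given in the sources used here. The methods describe a RefSeq gene model, while the rows carry Ensembl and Vega transcript names.

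The members, the other gene lists and the tests were chosen with earlier results of these data known. Each gene was taken at the row with the highest mean over the 10 libraries. limma 3.58.1 (R 4.3.3) was fitted to the deposited log2 values of the 38059 rows with a mean FPKM of at least 1 (values listed at 0 counted as 0), without a block, with Benjamini-Hochberg adjustment over all rows and a threshold of 0.05. It called 3 rows, 0 with the block and 11 without the libraries numbered 3. Single values were compared by two-sided exact permutation over the 252 labellings (smallest p 0.00794) and, as pairs, over the signs of 5 differences. Counts of genes use 1 row for each of 10161 genes.

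All 9 members were named. Of each other list, the 4 genes of highest mean and any with an unadjusted limma p under 0.05 were named, with every fast partner, and for likeness the 6 highest and 3 lowest r outside the members.

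Same-numbered young and aged libraries come from different mice, yet their deviations from the group means correlated at 0.131, 0.332, 0.695, 0.390 and 0.208 for numbers 1 to 5 (mean 0.351, other combinations −0.04), so that the number was used as a block in an alternative. Whether the number marks a shared day or lane was not stated.

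Depths and reads were recovered from the steps of the FPKM (tolerance 0.01) and served only to describe precision. The 2-fold limit, the pseudocounts of 1 and 0.1, the filters, the scalings and the left-out libraries are alternatives. Motifs were searched in the 250 bases before the start. Self-tests used simulated data. Scripts ran under Python 3.11.15, with tables read by pandas 2.3.3, permutations by scipy 1.17.1, arrays by numpy 2.4.6 and plots by matplotlib 3.10.9. The small RNA libraries of the study were not analysed here, and some genes that met a naming rule are not reported here. The p-values rest on 5 mice for each age, with 1 library for each mouse. They set each difference against the spread between these libraries. The unpaired tests leave out the likeness of same-numbered libraries.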

Additional observations from a re-analysis of the deposited data

How the results depend on the processing

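Over 22 alternatives, none of the 8 members reversed its direction. In the alternatives fitted by limma (all but the 2-sample test), none passed its adjusted p. The differences were between 0.47 (Tpm3, without aged library 1) and 2.95 (Tnni1, with a pseudocount of 0.1), and the smallest limma adjusted p was 0.308 (Myl3). The count at an unadjusted limma p under 0.05, 2 of 8 as reported, was 0 with the replicate block, with a pseudocount of 0.1, with either other scaling and by the 2-sample test with a more than 2-fold difference, and 1 without a filter, with a mean FPKM of at least 5 and with a pseudocount of 1. The median difference over all genes was 0.07 as deposited, 0.03 with median of ratios and 0.04 with quantile normalization, and that of the members 1.48, 1.46 and 1.41. The median of the members ranged from 0.80 to 2.12, and their count past 2-fold from 2 to 8, when 1 library was left out. The count of slow minus fast pairs with an exact p under 0.05, 1 as reported, was 0 with the replicate block, where 5 pairs cannot give an exact p below 0.0625, and ranged from 0 to 2 when 1 library was left out. For the other slow fiber genes, the 2-sample test with a more than 2-fold difference called 2 genes, where limma's adjusted p called 0. With the pairs, Myoz2 minus Myoz1 (1.24) lost its call, with an exact p of 0.188. The causes of the other changes were not tested. A pseudocount was not tried for the Myh7 share, which is a ratio of linear FPKM. With 5 libraries of each age and within-age SDs of 0.72 to 2.69, differences of the size seen in the members could not be told from the spread between mice, and values at an FPKM of 1 or less are listed as 0.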

Other observations

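When the search for like genes was widened to the 2290 tested genes outside the members that span at least 2 on the log2 scale, values at 0 included (an alternative chosen after seeing the data), 1 gene had an r above 0.9 with the mean profile of the members. It was D830015G02Rik, an older symbol of Mhrt or Myheart, a noncoding RNA known from the heart (r = 0.98, Spearman's rho 0.98, r = 0.97 without the pair of libraries farthest from the median). Its FPKM was 0, 2.49, 13.2, 0 and 5.71 in young and 32.6, 19.1, 10.5, 2.09 and 0 in aged libraries 1 to 5, where 0 is a listed value of 0. RefSeq places it at chr14:54968787-54974349 on GRCm38, on the strand opposite to Myh7, and it shares 3666 bases with the span of Myh7. Where it was listed above 0, its FPKM was 0.583 to 1.93 times that of Myh7. Without a stated strand setting, reads of Mhrt and Myh7 in the shared bases cannot be told apart.

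The genes that followed in that order included Atp2a2 (r = 0.815), Fxyd6 (0.76), Bdh1 (0.75) and Ldhb (0.73), named after their values were seen. Ldhb encodes the lactate dehydrogenase subunit of oxidative tissue and Bdh1 a mitochondrial enzyme of ketone body use. Their r was lower without the pair of libraries farthest from the median, 0.68 for Atp2a2, 0.60 for Fxyd6, 0.57 for Bdh1 and 0.58 for Ldhb. All these values describe the same 10 libraries and carry no test.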
